A study of Mus musculus with 12 samples.

Results

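The C1q and TNF related proteins are a family of secreted proteins whose members were followed here in ankle joints of mice with and without Mmp8, the neutrophil collagenase, after transfer of arthritogenic serum. The 6 genes named for the family were C1qtnf1, C1qtnf2, C1qtnf3, C1qtnf5, C1qtnf6 and C1qtnf7. They were chosen by the arthritis change of C1qtnf3, whose rise in arthritic joints on these same arrays was known, so that change is given below as a description with no test. Each gene was represented by the array feature annotated with its symbol alone. Of the 6, 5 had such a feature, out of 19938 genes on the array with a feature of their own, and all 5 passed the filter on low signal. C1qtnf5, known for its role at the back of the eye, shares its only feature with Mfrp, the gene with which it is transcribed, and is given no value.

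Each of 12 Affymetrix Mouse Gene 1.0 ST arrays measured the ankle RNA of 1 C57BL/6 mouse, and each of the 4 groups held 3 mice. Arthritic Mmp8-/- and arthritic Mmp8+/+ mice received 150 µl of pooled serum from K/BxN mice into the peritoneum on day 0 and on day 2, at 6 to 8 weeks of age, and were killed on day 7. Control Mmp8-/- and control Mmp8+/+ mice had no arthritis. The Mmp8 knockout allele was carried in every cell and had been backcrossed to C57BL/6, and the mice were labelled as male. The transferred serum carries antibodies that cause joint inflammation in the recipient, so this model bypasses the T and B cell steps that start autoimmune arthritis. Signals are log2 units after robust multichip averaging (RMA), in which a difference of 1 is a doubling. A whole ankle joint holds synovium, cartilage, bone with marrow, fat, muscle and some skin, and a lower signal can come from fewer cells of a type or from less RNA per cell, which cannot be told apart here.

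Proteins of this family consist of a short collagen-like stalk and a globular C1q domain, the fold shared by complement C1q, adiponectin and tumour necrosis factor, and they assemble into trimers. C1qtnf3 (also CTRP3 or cartducin) is made in cartilage and fat and promotes the growth of chondrocyte precursors in culture. C1qtnf6 (CTRP6) restrains the alternative pathway of complement in mice, a pathway that serum-transfer arthritis requires.

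The labels were checked before any comparison. Mmp8 read 5.54, 4.64 and 4.67 in arthritic Mmp8-/- mice, against 10.21, 10.69 and 10.58 in arthritic Mmp8+/+ mice. It read 4.82, 10.65 and 5.05 on the arrays labelled Mmp8-/- control, against 10.30, 11.16 and 11.09 in Mmp8+/+ control mice. The array labelled Mmp8-/- control mouse 2 thus lay within the Mmp8+/+ range. Xist, expressed in females, read 10.92 on the array of Mmp8-/- control mouse 1 and 10.42 on that of Mmp8+/+ control mouse 1, against 4.66 to 5.41 on the other 10 arrays. Eif2s3y, a Y-linked gene, read 4.16 and 4.02 on those arrays and 7.94 to 9.27 on the others. Arthritis differences of the members that moved by over 1.5 times when these 3 arrays were left out are given with and without them. The joint markers Prg4 (lubricin of the synovial lining), Col2a1 and Acan (cartilage) were present, with mean signals of 13.04, 9.71 and 9.48 in arthritic Mmp8-/- mice and of 13.41, 9.86 and 8.90 in Mmp8-/- control mice.

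Promoter sequence is shown for C1qtnf3 and C1qtnf6, the members with the largest differences in arthritis in both genotypes. The windows run from 250 bases before to 50 bases after the annotated start, 5′ to 3′ on the gene's strand, in the RefSeq annotation of GRCm38.p6, where 4 of the 5 measured members had an entry. Both genes lie on chromosome 15. The C1qtnf3 window is chr15:10952082-10952381 on the plus strand and the C1qtnf6 window is chr15:78529602-78529901 on the minus strand. Capitals mark matches to the motifs searched for on both strands.
C1qtnf3: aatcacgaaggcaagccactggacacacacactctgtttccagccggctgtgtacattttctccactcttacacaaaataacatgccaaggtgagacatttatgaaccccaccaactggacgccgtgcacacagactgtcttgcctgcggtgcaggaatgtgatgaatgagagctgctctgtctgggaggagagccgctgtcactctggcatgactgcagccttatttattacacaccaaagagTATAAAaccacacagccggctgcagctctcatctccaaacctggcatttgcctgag
C1qtnf6: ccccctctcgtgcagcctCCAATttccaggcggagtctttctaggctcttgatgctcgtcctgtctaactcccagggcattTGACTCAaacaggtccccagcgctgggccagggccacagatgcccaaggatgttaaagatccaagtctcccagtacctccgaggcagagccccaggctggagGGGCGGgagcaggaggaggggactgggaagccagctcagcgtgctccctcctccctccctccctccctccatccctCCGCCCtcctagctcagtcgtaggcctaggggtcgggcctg
The motifs were the AP-1 site TGANTCA, the GC box GGGCGG, the TATA box TATAAA and the CCAAT box CCAAT, none of which overlapped another in these windows. The C1qtnf3 window had a GC content of 50.7% and held 1 TATAAA, beginning at position -6 relative to the start, and none of the other motifs. The C1qtnf6 window had a GC content of 63.7% and held 1 CCAAT at -232, 1 TGANTCA at -169 and 2 GC boxes, the second of them read on the other strand, with no TATAAA. Of the 32851 promoter windows of this length, 7.81% held the AP-1 site, 35.7% the GC box, 13.6% the TATA box and 37.4% the CCAAT box. The matches describe the letters in these windows only.

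C1qtnf3 was far higher in arthritic than in control joints of both genotypes. It read 9.12, 9.60 and 8.69 in arthritic Mmp8-/- mice, against 6.34, 6.98 and 6.50 in Mmp8-/- control mice. In Mmp8+/+ mice it read 9.54, 9.33 and 9.11 with arthritis, against 6.41, 5.97 and 6.42 in the controls. Every arthritic array lay above every control array, by more than the whole spread of either set. The difference was 2.53 (SE 0.23) in Mmp8-/- mice, a 5.77-fold higher signal. In Mmp8+/+ mice it was 3.06 (SE 0.23), an 8.35-fold higher signal. These SEs describe the spread between mice and take no account of the choice of the gene by this rise. By size of the increase C1qtnf3 was number 21 in Mmp8-/- mice and number 15 in Mmp8+/+ mice among 15977 genes. Its place follows from the choice of the gene and is not evidence of anything further. With the doubted arrays left out the differences stayed of the same size, at 2.71 in Mmp8-/- mice without the array labelled Mmp8-/- control mouse 2 and at 2.40 and 3.13 in Mmp8-/- and Mmp8+/+ mice without both arrays with Xist signal. Without all 3 arrays they were 2.64 and 3.13.

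**Figure D1:**
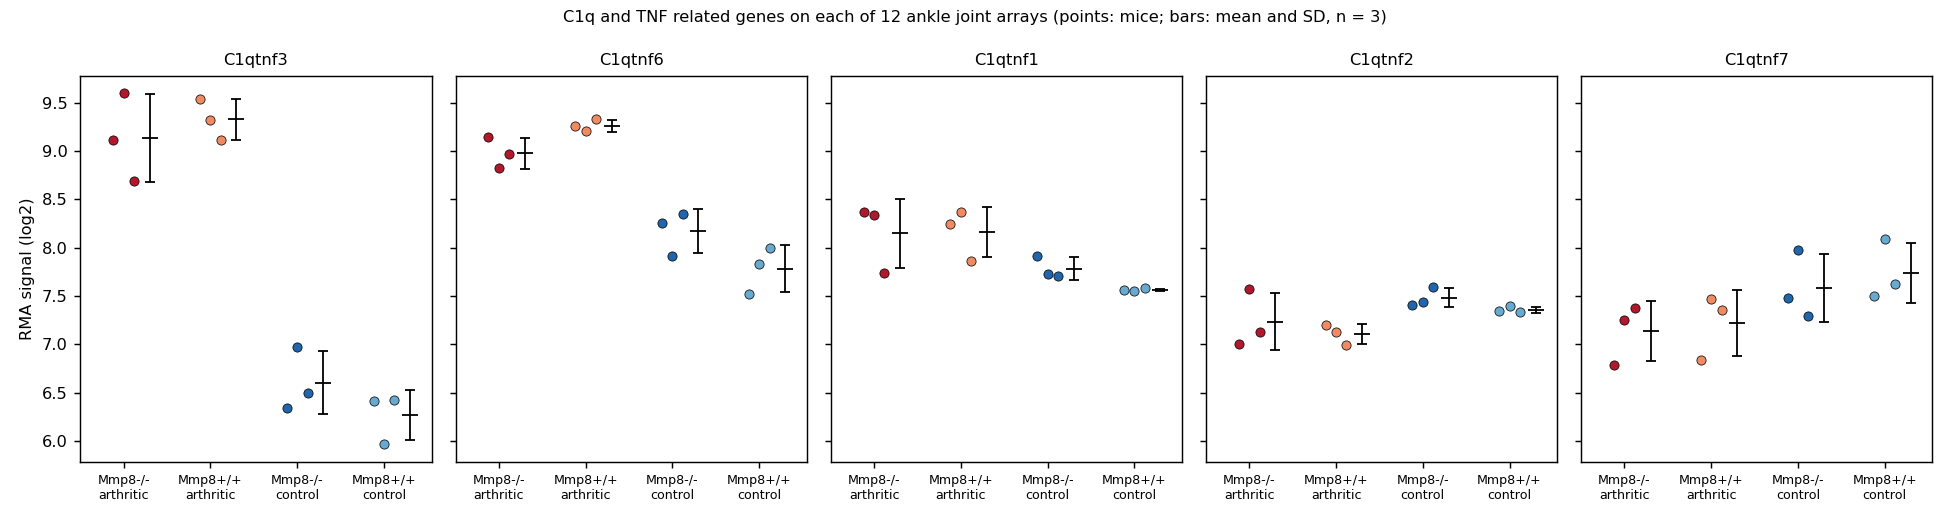
RMA signal (log2, vertical axis) of the 5 measured genes on each array, by group; points are mice, and the bars beside them are mean and SD (n = 3 mice per group). For C1qtnf3 and C1qtnf6 every arthritic mouse lies above every control mouse, whereas for C1qtnf2 and C1qtnf7 arthritic and control mice overlap in Mmp8-/- mice. Levels of different genes are read by different probes and are not to be compared with each other.

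C1qtnf6, the complement regulator, was the other member that rose in both genotypes. Its signal was 9.14, 8.82 and 8.97 in arthritic Mmp8-/- mice, against 8.26, 7.91 and 8.35 in Mmp8-/- control mice. In Mmp8+/+ mice the arthritic joints read 9.26, 9.20 and 9.33, against 7.52, 7.83 and 8.00 in the control joints. As with C1qtnf3, no arthritic array fell within the control range, and the arthritic Mmp8+/+ mice lay close together. The increase was 0.80 (SE 0.17) in Mmp8-/- mice, or 1.75-fold, with a limma adjusted p of 0.00478, and 1.48 (SE 0.17) in Mmp8+/+ mice, or 2.79-fold, with an adjusted p of 3.99e-05. It ranked 390 and 104 among the 15977 genes by size. Without the array labelled Mmp8-/- control mouse 2 the increase in Mmp8-/- mice was 0.67 (limma adjusted p = 0.0281), and without both arrays with Xist signal it was 0.85 (adjusted p = 0.0139). Leaving out all 3 arrays left a single Mmp8-/- control mouse, whose spread is then taken from the other groups. The increase in Mmp8-/- mice was then 0.63 (SE 0.24) and no longer passed (limma adjusted p = 0.224), in a fit that called 2.76% of all features. The Mmp8+/+ increase was 1.35 in both of the latter fits, with limma adjusted p of 0.000581 and 0.000659.

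C1qtnf1 (CTRP1), which binds fibrillar collagen and blocks platelet adhesion to it, was higher with arthritis by a smaller amount that passed the test in Mmp8+/+ mice. It read 8.37, 8.34 and 7.74 in arthritic Mmp8-/- mice, against 7.92, 7.73 and 7.70 in Mmp8-/- control mice. In arthritic Mmp8+/+ mice it read 8.25, 8.37 and 7.87, against 7.57, 7.56 and 7.58 in the controls. Mouse 3 of each arthritic group was lower than its companions, and in Mmp8-/- mice it fell within the control range. The difference was 0.37 (SE 0.19, limma adjusted p = 0.162) in Mmp8-/- mice and 0.59 (SE 0.19, adjusted p = 0.0371), or 1.51-fold, in Mmp8+/+ mice. The call in Mmp8+/+ mice depended on single arrays. It was lost without either of the arthritic mice 1 and 2 and without any of the 3 control mice of that genotype (limma adjusted p of 0.117, 0.132, 0.0958, 0.0886 and 0.0657), and without both arrays with Xist signal (0.113). In the same order the difference was 0.55, 0.49, 0.59, 0.59, 0.60 and 0.59. The share of all features called in Mmp8+/+ mice was 12.2%, 13.4%, 11.8%, 13.5%, 20% and 11%, against 19.6% with all 12 arrays. Conversely, in Mmp8-/- mice the difference was 0.57 and passed (limma adjusted p = 0.0323) when arthritic mouse 3 was left out.

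C1qtnf2 and C1qtnf7 (CTRP2 and CTRP7), which act on glucose and lipid metabolism in mice, had lower mean signals in arthritic joints, and neither passed the test. C1qtnf2 read 7.00, 7.57 and 7.13 in arthritic Mmp8-/- mice, against 7.41, 7.44 and 7.60 in Mmp8-/- control mice. In Mmp8+/+ mice it read 7.20, 7.13 and 6.99 with arthritis, against 7.34, 7.39 and 7.34 without. The groups overlapped in Mmp8-/- mice through arthritic mouse 2 alone and did not overlap in Mmp8+/+ mice. The difference was -0.25 in both (SE 0.16, limma adjusted p of 0.268 in Mmp8-/- and 0.284 in Mmp8+/+ mice), and in Mmp8-/- mice it was -0.13 without arthritic mouse 1 and -0.42 without arthritic mouse 2. C1qtnf7 read 6.78, 7.25 and 7.37 in arthritic Mmp8-/- mice, against 7.48, 7.97 and 7.29 in Mmp8-/- control mice. It read 6.84, 7.47 and 7.36 in arthritic Mmp8+/+ mice, against 7.50, 8.09 and 7.63 in Mmp8+/+ control mice. Again only the Mmp8+/+ groups were free of overlap, and there by little. The difference was -0.45 in Mmp8-/- mice and -0.52 in Mmp8+/+ mice (SE 0.23, limma adjusted p of 0.172 and 0.129), and the 95% interval in Mmp8+/+ mice ran from -1.02 to -0.02. The difference in Mmp8-/- mice was -0.25 without the array labelled Mmp8-/- control mouse 2, -0.27 without arthritic mouse 1 and -0.16 without all 3 doubted arrays. The difference in Mmp8+/+ mice was -0.33 without arthritic mouse 1 and -0.35 without control mouse 2.

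**Figure D2:**
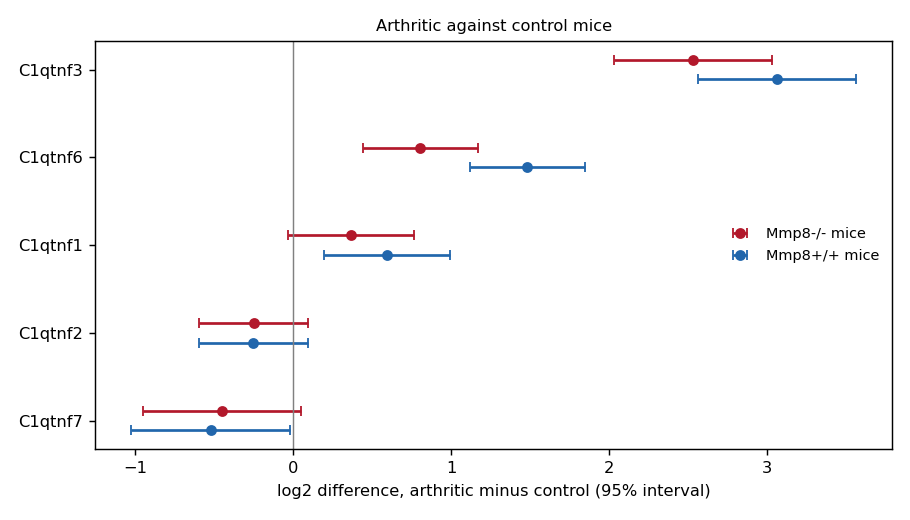
Log2 difference of arthritic minus control mice (horizontal axis) for each gene, in Mmp8-/- and Mmp8+/+ mice; points are differences of group means (n = 3 mice per group) and bars are 95% intervals from limma. The differences run from 2.53 and 3.06 for C1qtnf3 to -0.45 and -0.52 for C1qtnf7. The bars of C1qtnf3 take no account of its choice by this rise and are not a test.

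Leaving aside C1qtnf3, 1 of the other 4 members was called higher and 0 were called lower in arthritic Mmp8-/- mice at an adjusted p under 0.05, against 8.3% of all 17450 features tested called higher and 14.3% called lower (22.6% in either direction). In Mmp8+/+ mice 2 of 4 were called higher and 0 lower, against 7.47% and 12.1% of all features (19.6% in either direction). By overlap alone, 1 of the 4 lay wholly above its controls in Mmp8-/- mice and 0 wholly below, beside 18.4% and 21.5% of all features. In Mmp8+/+ mice 2 of 4 lay wholly above and 2 of 4 wholly below, beside 18.6% and 22.4%. The median difference of these 4 genes was 0.06 in Mmp8-/- mice and 0.17 in Mmp8+/+ mice, against -0.01 and 0.01 over all genes tested. Both arthritis comparisons are separate in their arrays, with controls labelled for each genotype. Their SEs rest on all 12 arrays, so the tests are not independent of each other.

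The genotype comparisons asked whether loss of Mmp8 went with other levels of these genes. In arthritic mice C1qtnf3 averaged 9.14 ± 0.45 in Mmp8-/- and 9.33 ± 0.21 in Mmp8+/+ mice (SD, n = 3 each), a difference of -0.19 with a 95% interval of -0.69 to 0.31. C1qtnf6 averaged 8.98 ± 0.16 and 9.26 ± 0.06, and each Mmp8-/- mouse lay below each Mmp8+/+ mouse, with a difference of -0.29 (95% interval -0.65 to 0.08). The remaining differences were -0.01 for C1qtnf1 (-0.41 to 0.39), 0.13 for C1qtnf2 (-0.22 to 0.47) and -0.09 for C1qtnf7 (-0.59 to 0.41). The width of these intervals means that equal levels are not shown. None of the 5 members passed the test (limma adjusted p = 0.9997 for each), where 0.00573% of all features did, and 504 features but 0 of the 5 members had an unadjusted p under 0.05. The 1 feature that passed was that of Krtdap, a keratinocyte gene named after its values were seen. It averaged 6.65 in arthritic Mmp8-/- and 8.47 in arthritic Mmp8+/+ mice. Mmp8 itself, the deleted gene, did not pass there, at -5.54 (SE 1.02, limma adjusted p = 0.347). Its SE rests on all 4 groups, among them the array labelled Mmp8-/- control mouse 2 with Mmp8 signal. The test missed this known difference at an SE above the 0.16 to 0.23 of the members. That miss therefore does not measure how sensitive the test was for the members. By the width of their intervals, a member that did not pass is still not shown to be unchanged. C1qtnf6 was the 1 member of 5 that lay wholly below, beside 3.42% of all features, and 0 lay wholly above, beside 2.85%.

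Among control mice the Mmp8-/- means were higher for 4 of the 5 genes and lower for C1qtnf7. C1qtnf6 averaged 8.17 ± 0.23 in Mmp8-/- and 7.78 ± 0.24 in Mmp8+/+ control mice (SD, n = 3 each), with overlap, a difference of 0.39 with a 95% interval of 0.03 to 0.75 and a limma adjusted p of 0.9995 (0.0363 unadjusted). That difference was 0.26 without Mmp8+/+ control mouse 1, whose array had Xist signal, and 0.52 without the array labelled Mmp8-/- control mouse 2. C1qtnf3 averaged 6.61 ± 0.33 and 6.27 ± 0.26, which overlapped, with a difference of 0.34 (95% interval -0.16 to 0.84). Its highest control value, 6.98, came from the array labelled Mmp8-/- control mouse 2, and the difference was 0.15 without that array. C1qtnf1 and C1qtnf2 differed by 0.22 and 0.12 (95% intervals -0.18 to 0.62 and -0.22 to 0.47), without overlap, and C1qtnf7 by -0.16 (-0.66 to 0.34), with overlap. The test passed 0 of the 5 members and 0% of all features (limma), 567 of which had an unadjusted p under 0.05. Mmp8 was among the features that did not pass, at -4.01 (SE 1.02). Wholly above lay 2 of 5 members, beside 4.1% of all features, and wholly below 0, beside 3.78%.

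The interaction asks whether the arthritis change differed between genotypes and equals the log2 of the ratio of the Mmp8-/- to the Mmp8+/+ fold change. For C1qtnf6 it was -0.68 (SE 0.24), a ratio of 0.625 with a 95% interval of 0.438 to 0.892, so that the fold increase was smaller in Mmp8-/- mice on these arrays. The unadjusted limma p was 0.0131 and the adjusted p was 0.9999, and 0 of the 5 members and 0% of all features passed (555 had an unadjusted p under 0.05). The interaction of C1qtnf6 was built from a lower arthritic and a higher control mean in Mmp8-/- mice. It was -0.81 without the array labelled Mmp8-/- control mouse 2, -0.50 without both arrays with Xist signal and -0.72 without all 3. C1qtnf3 had an interaction of -0.53, a ratio of 0.692 (95% interval 0.424 to 1.13). Its interaction was -0.31 without arthritic Mmp8-/- mouse 3, -0.35 without the array labelled Mmp8-/- control mouse 2 and -0.74 without both arrays with Xist signal. For C1qtnf1, C1qtnf2 and C1qtnf7 the interaction was -0.23 (-0.79 to 0.34), 0.00 (-0.48 to 0.49) and 0.07 (-0.63 to 0.78). That of C1qtnf1 was -0.02 without arthritic Mmp8-/- mouse 3 and -0.38 without arthritic Mmp8+/+ mouse 3.

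**Figure D3:**
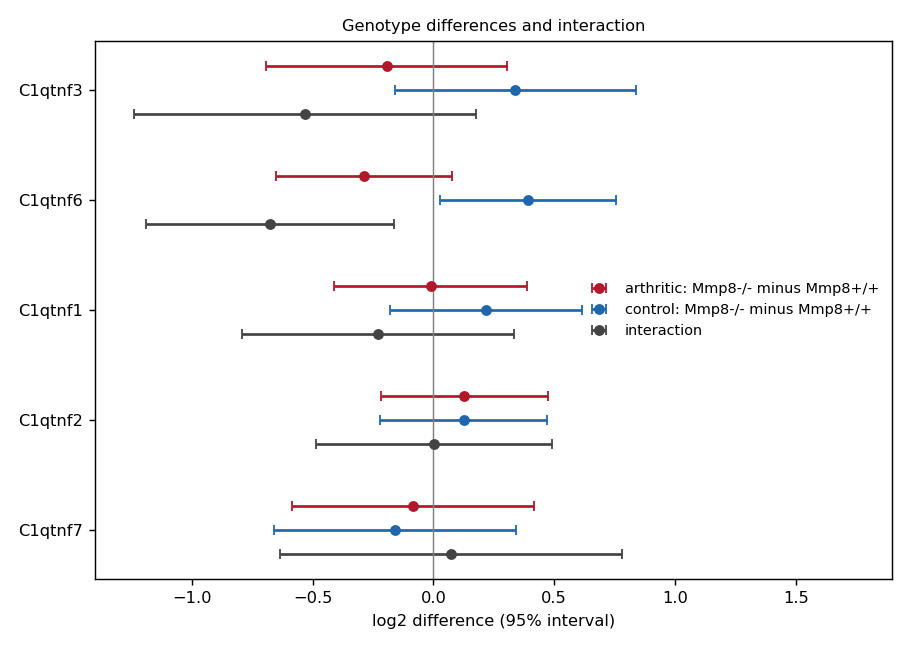
Log2 difference of Mmp8-/- minus Mmp8+/+ mice (horizontal axis) with and without arthritis, and the interaction of both factors, for each gene; points are differences of group means (n = 3 mice per group) and bars are 95% intervals from limma before adjustment. The intervals of C1qtnf6 among control mice (0.03 to 0.75) and for its interaction (-1.19 to -0.17) are the ones that leave out 0, and neither passed after adjustment over all features.

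The order of the 4 group means was the same for C1qtnf3 and C1qtnf6, with Mmp8+/+ control lowest, then Mmp8-/- control, arthritic Mmp8-/- and arthritic Mmp8+/+. Control groups overlapped with each other for both genes, and the arthritic groups overlapped for C1qtnf3 but not for C1qtnf6. For both genes the step between the control and the arthritic groups was the largest in this order. Over the 12 arrays the signals of C1qtnf3 and C1qtnf6 had a Pearson r of 0.91, and after subtraction of the group means r was -0.49. The first value mainly reflects the arthritis change that both share, and mice with more C1qtnf3 than their group did not have more C1qtnf6. With C1qtnf1 the r of C1qtnf3 was 0.83 over the arrays and 0.51 over the deviations. All are descriptions over 12 arrays of 4 groups.

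Genes with the pattern most like that of C1qtnf3 over the 12 arrays were Sorcs2, a sortilin-family receptor (r = 0.988), Sfrp2 and Sfrp1, secreted inhibitors of Wnt signalling (r = 0.985 each), Slc39a14, a zinc importer (r = 0.985), and Bdkrb1, the inducible bradykinin receptor (r = 0.985). Sfrp2 averaged 11.79 in arthritic Mmp8-/- mice and 9.22 in Mmp8-/- control mice, a difference of 2.57 (SE 0.18). In Mmp8+/+ mice it averaged 12.02 with arthritis and 9.15 without, a difference of 2.88. Bdkrb1 had differences of 3.596 in Mmp8-/- and 3.79 in Mmp8+/+ mice (SE 0.18). Its control means, 4.99 in Mmp8-/- and 4.62 in Mmp8+/+ mice, lay below the 5.3 that the filter required. Bdkrb1 thus passed the filter only through its arthritic arrays. Sorcs2, though closest in pattern, had smaller differences of 0.76 and 0.96 (SE 0.14). Arrays of 1 group share their condition, so this measure ranks chiefly by the arthritis change. Over deviations from the group means the closest were Sftpb (surfactant protein B), Btnl5-ps, Dlx1as, Cideb and Gm10822, with r between 0.906 and 0.930, and none of these passed the arthritis test in either genotype (limma). C1qtnf6 was followed most closely by Lgals1 (galectin-1), Sh3bp2 (an adaptor protein) and Pfkl (a phosphofructokinase), with r of 0.974, 0.974 and 0.973. For C1qtnf1 the closest genes were 4930429B21Rik, Ano7 and Ulk1, an autophagy kinase, with r of 0.919, 0.919 and 0.912. The control means of 4930429B21Rik, 5.27 in Mmp8-/- and 5.19 in Mmp8+/+ mice, also lay below 5.3. That gene thus passed the filter through its arthritic arrays, with means of 5.54 and 5.42. The closest genes for C1qtnf2 were Pde7b, a cyclic nucleotide phosphodiesterase, Lrrc58 and Cdkl2, with r of 0.889, 0.877 and 0.872. Those for C1qtnf7 were Mtus1, Dcp1b, an mRNA decapping factor, and Gdpd1, with r of 0.948, 0.947 and 0.934. These were the highest correlations with any gene tested, and no p is attached.

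The C1q domain occurs in other proteins, most of them secreted, and 24 of their genes were listed. Of these 23 passed the filter on signal and Otol1 did not. In arthritic Mmp8-/- mice 4 of the 23 were called higher, 6 lower and 13 did not pass, with a median difference of -0.08. Arthritic Mmp8+/+ mice had 4 higher, 5 lower and 14 that did not pass, with a median of 0.14. Over all 15977 genes tested, 1348 were called higher and 2272 lower in Mmp8-/- mice, and 1234 and 1933 in Mmp8+/+ mice. Genes of the list were thus called in both directions. In Mmp8-/- mice the count called higher was 2 without Mmp8-/- control mouse 1 and without both arrays with Xist signal. Those fits called 10.6% and 9.83% of all features in either direction, against 22.6% with all 12 arrays. In Mmp8+/+ mice the count called higher was 2 without Mmp8+/+ control mouse 1. That fit called 11.8% of all features in either direction, against 19.6%.

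C1qtnf4, C1qtnf9 and C1qtnf12 on this list carry the family's name but were outside the 6 genes followed here. Of them C1qtnf9, a heart and fat product, fell in both genotypes. It read 6.18, 6.16 and 6.45 in arthritic Mmp8-/- mice, against 7.26, 7.09 and 6.88 in Mmp8-/- control mice, and 5.82, 5.94 and 6.39 in arthritic Mmp8+/+ mice, against 6.85, 6.91 and 7.03 in Mmp8+/+ control mice. No arthritic array reached the lowest control array. The differences were -0.81 and -0.88 (SE 0.17, limma adjusted p of 0.00527 in Mmp8-/- and 0.00284 in Mmp8+/+ mice). C1qtnf4 and C1qtnf12 did not pass, at 0.12 and -0.14 in Mmp8-/- mice and 0.18 and -0.36 in Mmp8+/+ mice.

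The highest values of the list were those of Col8a2, Emilin1 and C1ql2. Col8a2, a chain of the short-chain collagen VIII, averaged 8.28 in arthritic Mmp8-/- mice and 7.04 in Mmp8-/- control mice, a rise of 1.24 (SE 0.22), and it rose by 1.51 in Mmp8+/+ mice (limma adjusted p of 0.00163 and 0.000319). Emilin1, an elastic fibre glycoprotein, rose by 1.02 and 1.18 (SE 0.22). C1ql2, of the C1q-like proteins known from synapses, rose by 0.87 in Mmp8-/- and 0.89 in Mmp8+/+ mice (SE 0.29). In Mmp8-/- mice it passed narrowly (limma adjusted p = 0.0463), and the control arrays there spread from 5.61 to 6.86. Emilin2 was called in Mmp8+/+ mice, at 0.73, and not in Mmp8-/- mice, at 0.53 (limma adjusted p of 0.0289 and 0.0891). C1ql4 was called in Mmp8-/- mice, at 0.56, and not in Mmp8+/+ mice, at 0.41 (limma adjusted p of 0.0146 and 0.0608). Differences between genotypes in these changes did not pass the interaction test for any gene of the list (0 of 23).

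The lowest values of the list were those of Col10a1, Adipoq and Mmrn1. Col10a1, the collagen of hypertrophic chondrocytes, averaged 7.78 in arthritic Mmp8-/- mice and 10.55 in Mmp8-/- control mice, a difference of -2.77 (SE 0.63), and 6.52 with arthritis against 10.36 without in Mmp8+/+ mice, a difference of -3.84 (limma adjusted p of 0.00719 and 0.000725). The arthritic Mmp8-/- arrays spread widely for Col10a1, from 6.45 to 10.04 (SD 1.97), and the highest came close to the 10.36 to 10.82 of Mmp8-/- control mice. Adipoq (adiponectin), the fat hormone whose structure the members resemble, averaged 7.76 in arthritic Mmp8-/- mice and 10.53 in Mmp8-/- control mice, a difference of -2.77 (SE 0.37), and differed by -2.58 in Mmp8+/+ mice. Mmrn1, a platelet and endothelial multimerin, fell by 1.91 in Mmp8-/- and by 1.89 in Mmp8+/+ mice (SE 0.36). C1ql3 fell by 0.997 and by 1.06 (SE 0.18). Mmrn2, an endothelial multimerin, was called in Mmp8-/- mice, at -0.59, and not in Mmp8+/+ mice, at -0.13 (SE 0.18, limma adjusted p of 0.0276 and 0.618).

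Complement C1q itself did not pass in either genotype. C1qa, C1qb and C1qc, the chains of the classical pathway's recognition protein, made chiefly by macrophages, had differences of 0.10, -0.26 and -0.48 in Mmp8-/- mice and of 0.27, 0.06 and -0.32 in Mmp8+/+ mice (limma adjusted p between 0.0927 and 0.878). The other C1q domain genes that did not pass in either were C1ql1 (0.46 in Mmp8-/- and 0.38 in Mmp8+/+ mice), Cbln1 (-0.43 and -0.76), Cbln2 (0.32 and 0.15), Cbln3 (-0.08 and 0.15), Cbln4 (0.48 and 0.21), Col8a1 (0.15 and 0.44) and Caprin2 (-0.42 and -0.43).

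**Figure D4:**
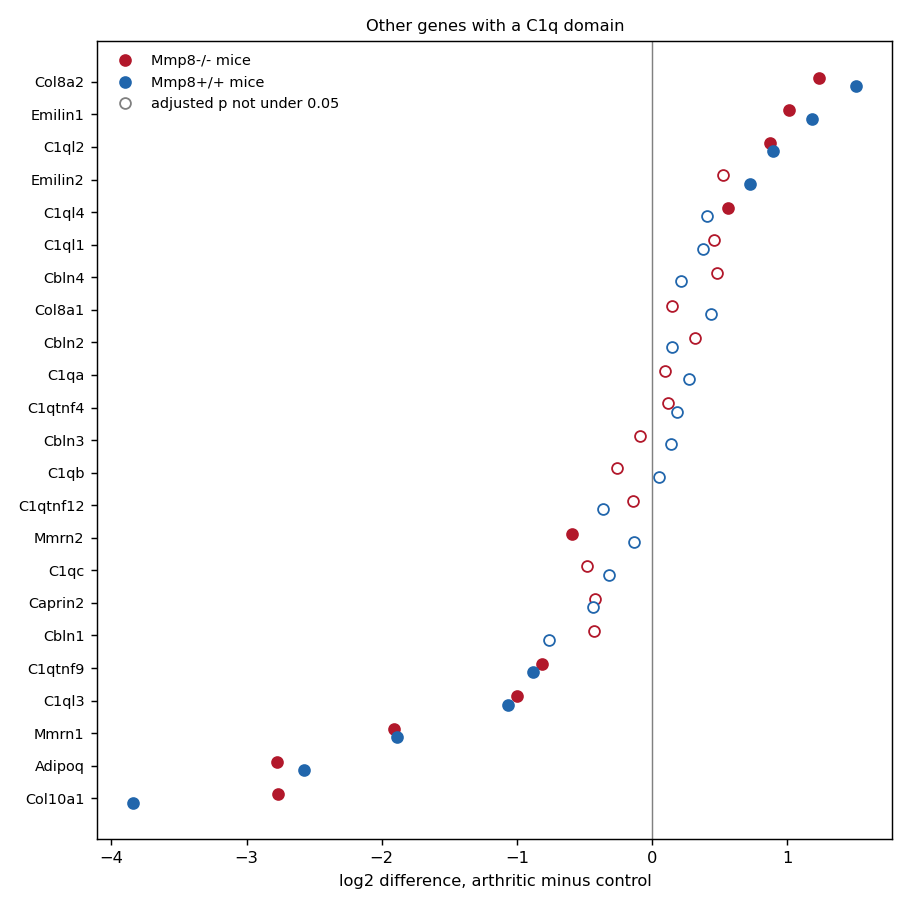
Log2 difference of arthritic minus control mice (horizontal axis) for the 23 other C1q domain genes tested, in Mmp8-/- and Mmp8+/+ mice; filled points passed an adjusted p under 0.05 (limma) and open points did not. Values run from 1.24 and 1.51 for Col8a2 to -2.77 and -3.84 for Col10a1, and none of the 3 C1q chains passed.

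Receptors and partners proposed for this family and for adiponectin were listed as 7 genes, of which 5 were tested, since Adgrb3 was below the filter and Mfrp had no feature of its own. In each genotype 0 were called higher and 2 lower. Over all features, 8.3% were called higher and 14.3% lower in Mmp8-/- mice, and 7.47% and 12.1% in Mmp8+/+ mice. Cdh13 (T-cadherin), which holds adiponectin on the cell surface, averaged 7.78 in arthritic Mmp8-/- mice and 9.46 in Mmp8-/- control mice, and it averaged 8.05 and 9.20 in arthritic and control Mmp8+/+ mice. The differences were -1.68 and -1.15 (SE 0.24, limma adjusted p of 0.000274 and 0.00432). Adipor2, an adiponectin receptor, fell by 0.92 in Mmp8-/- and by 0.88 in Mmp8+/+ mice (SE 0.18), whereas Adipor1 was at -0.01 and 0.21 and did not pass. Lamp1 and Scarb2, lysosomal membrane proteins, did not pass at 0.01 and 0.23 in Mmp8-/- and -0.02 and 0.15 in Mmp8+/+ mice.

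Alternative complement genes, the pathway on which C1qtnf6 acts, were listed as 13, of which 8 were tested. The others had no feature of their own or were below the filter. Those called were 4 higher and 1 lower in Mmp8-/- mice, with a median difference of 0.70 over the 8. In Mmp8+/+ mice they were 5 higher and 1 lower, with a median of 0.998. Beside these stand 8.3% higher and 14.3% lower of all features in Mmp8-/- mice, and 7.47% and 12.1% in Mmp8+/+ mice. The medians over all genes tested were -0.01 and 0.01. Cfi, the protease that inactivates C3b, averaged 7.35 in arthritic Mmp8-/- mice and 5.32 in Mmp8-/- control mice, and 7.43 and 5.28 in arthritic and control Mmp8+/+ mice. It rose by 2.03 and 2.15 (SE 0.21, limma adjusted p of 1.80e-05 and 1.04e-05). Both control means lay close to 5.3, the mean signal that the filter required. Cfi thus passed the filter mainly through its arthritic arrays, which limits what its p-values and its place in the counts can show. Masp1, whose product MASP-3 activates pro-factor D, rose by 1.30 and 1.69 (SE 0.26), and Cfb, which forms the convertase, by 0.78 and 1.23 (SE 0.21). Cd55 (decay-accelerating factor), which dissolves the convertase and is carried by synovial lining cells, averaged 6.82 in arthritic Mmp8-/- mice and 9.50 in Mmp8-/- control mice and fell by 2.68, and it fell by 1.98 in Mmp8+/+ mice (SE 0.25, limma adjusted p of 9.02e-06 and 0.000104). The pathway's genes called therefore included both activators and inhibitors. In Mmp8-/- mice the number called higher was 2 without arthritic mouse 3 and without control mouse 1 or control mouse 2. It was also 2 without both arrays with Xist signal. In that order these fits called 23.4%, 10.6%, 13.7% and 9.83% of all features in either direction, against 22.6% with all 12 arrays. The number called lower in Mmp8-/- mice was 2 without arthritic mouse 3 and without control mouse 2.

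None of the 36 genes tested from these 3 lists passed in the genotype comparisons or the interaction (limma). Of all features 0.00573% passed in arthritic mice, and 0% in control mice and in the interaction. Before adjustment, 0 of the 36 had a p under 0.05 in any of the 3 comparisons. Of the 17450 features 504, 567 and 555 did, in the same order.

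Markers of the tissues in the joint moved with arthritis beside the members. For all marker lists, the shares of all features to set beside the counts were 8.3% higher and 14.3% lower in Mmp8-/- mice. In Mmp8+/+ mice the shares were 7.47% and 12.1%. Of 11 adipocyte markers tested 10 were called lower and 0 higher in each genotype. Their mean signal per array was 7.53 to 8.10 in arthritic Mmp8-/- mice and 9.73 to 9.88 in Mmp8-/- control mice, and 7.67 to 7.97 and 9.11 to 9.998 in arthritic and control Mmp8+/+ mice. The levels of the arthritic and control groups did not overlap. Osteoblast markers had 4 of 6 called lower in Mmp8-/- mice and 5 of 6 in Mmp8+/+ mice, with list levels of 8.04 to 9.03 against 9.75 to 10.18 and of 8.07 to 8.35 against 9.43 to 9.96. Skeletal muscle markers had 4 of 10 and 8 of 10 called lower, with list levels of 9.05 to 10.21 against 10.62 to 11.02 and of 8.89 to 10.62 against 10.67 to 11.74. C1qtnf3 and C1qtnf6 were thus higher in the arthritic groups, where these lists were lower. Over deviations from the group means, C1qtnf6 had an r of 0.50 with the adipocyte, -0.22 with the osteoblast and -0.02 with the muscle list. For C1qtnf3 these were -0.38, -0.55 and -0.43. C1qtnf9 fell where the adipocyte list, which holds Adipoq itself, was lower, and the means of C1qtnf2 and C1qtnf7, which did not pass, were also lower there. The part of these tissues in the results was not tested.

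The level of the cartilage list overlapped between arthritic and control mice. Of 15 chondrocyte markers, 3 were called higher and 3 lower in Mmp8-/- mice, and 3 higher and 2 lower in Mmp8+/+ mice. Their list level was 7.92 to 8.51 in arthritic Mmp8-/- mice and 8.07 to 8.43 in Mmp8-/- control mice, and 7.91 to 8.25 and 8.02 to 8.30 in arthritic and control Mmp8+/+ mice. Col2a1 differed by -0.15 and -0.06 between arthritic and control mice and did not pass. Over deviations from the group means C1qtnf3 had an r of -0.48 with the chondrocyte list and -0.38 with the adipocyte list, over 12 arrays. Synovial fibroblast markers had 2 of 12 called higher and 4 lower in Mmp8-/- mice and 3 higher and 1 lower in Mmp8+/+ mice. Pdpn (podoplanin) rose by 1.86 and 2.40 (SE 0.27), Thy1 by 0.58 and 1.10 (SE 0.17), and Clic5, of the lining layer, fell by 3.23 and by 3.35 (SE 0.17). Their list level was 10.63 to 11.04 in arthritic Mmp8-/- mice and 11.24 to 11.32 in Mmp8-/- control mice, and 10.91 to 10.997 and 11.01 to 11.22 in arthritic and control Mmp8+/+ mice.

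Among the lists of leukocytes, vessels and skin, macrophage markers had 4 of 9 called higher and 3 lower in Mmp8-/- mice and 3 higher and 2 lower in Mmp8+/+ mice, with list levels of 9.72 to 10.18 against 9.78 to 9.81 and of 9.91 to 10.01 against 9.64 to 9.86. Neutrophil markers had 2 of 12 called higher and 0 lower in Mmp8-/- mice and 2 higher and 4 lower in Mmp8+/+ mice, with overlapping list levels. Endothelial markers had 0 of 10 higher and 3 lower in Mmp8-/- mice and 1 higher and 1 lower in Mmp8+/+ mice. Keratinocyte markers, Krtdap among them, had 2 of 7 called lower in Mmp8-/- mice and 0 passed in Mmp8+/+ mice. Their list level was 7.11 to 7.38 in arthritic Mmp8-/- mice, lower than in any arthritic Mmp8+/+ mouse (8.28 to 9.22) and within or below the 7.30 to 9.11 of Mmp8-/- control mice, so this list did not overlap between the arthritic groups that the genotype comparison sets against each other. Its part in the members' values was not tested.

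**Figure D5:**
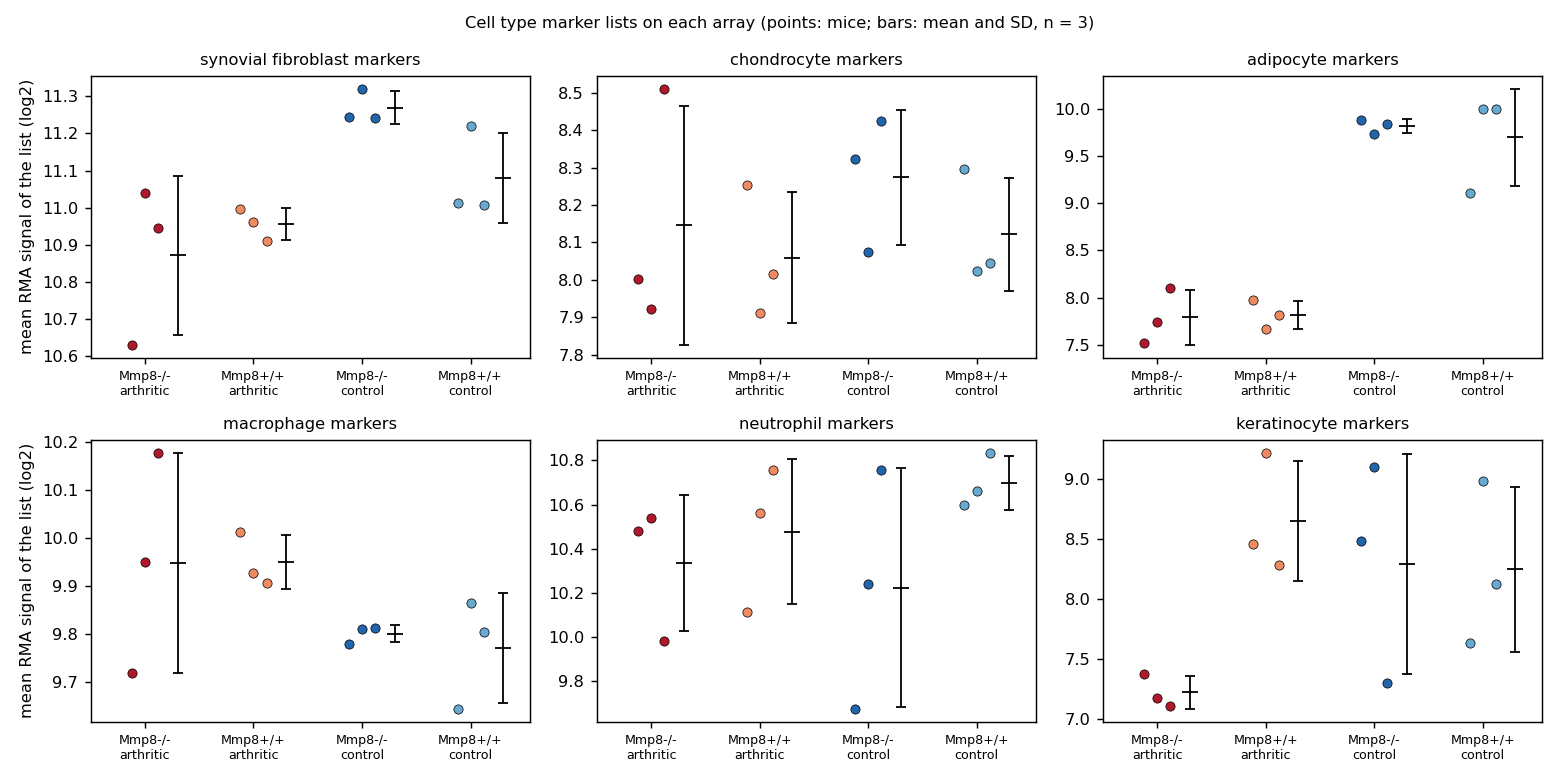
Mean RMA signal (log2, vertical axis) of 6 marker lists on each array, by group; points are mice, and the bars beside them are mean and SD (n = 3 mice per group). Adipocyte levels of arthritic mice (7.53 to 8.10) lie below those of all control mice (9.11 to 9.998), chondrocyte levels overlap, and keratinocyte levels of arthritic Mmp8-/- mice do not exceed 7.38.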

How the data were processed

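Ankle joint RNA of 12 mice was measured on Affymetrix Mouse Gene 1.0 ST arrays. The authors deposited log2 values summarized by RMA for 28853 features in 12 columns, of which 0 were left out. The raw intensities were not used here, so RMA was not repeated. RMA tends to compress differences between low signals. Features were named from the array annotation, which gave 1 symbol for 21789, several for 1621 and none for 5443. Groups came from the labels, which give no replicate numbers, and mice are numbered in the order of submission.

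Tested were the 17450 features with 1 symbol and a mean log2 signal of at least 5.3. For a gene with several features the one with the highest mean was used, giving 15977 genes. A model with 1 mean for each of 4 groups was fitted to all 12 arrays in limma 3.58.1 (R 4.3.3), leaving 8 residual degrees of freedom, and two-sided moderated p-values were adjusted by Benjamini-Hochberg over all features at 5%. The 5 comparisons were arthritic against control mice in each genotype, Mmp8-/- against Mmp8+/+ mice with and without arthritis, and the interaction. Lists were described by counts and medians, with no set test. Alternatives were the compared groups alone, ordinary regression, other moderation, array weights, other filters and normalizations, and the removal of arrays. The procedure was tested on simulated data. Genes named are the members, all C1q domain genes, up to 4 genes of the other lists by their arthritis statistic, with genes that give further context chosen after their values were seen, and the genes closest in pattern. The members and lists were chosen with earlier results of these data known. The number of arrays limits the precision.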

Additional observations from a re-analysis of the deposited data

How the results depend on the processing

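Of the 4 members other than C1qtnf3, 1 passed in Mmp8-/- arthritis and 2 in Mmp8+/+ arthritis. In Mmp8-/- mice the count was 0 without all 3 doubted arrays and 1 to 2 when single arrays were left out. In Mmp8+/+ mice it was 1 under ordinary regression, 1 without both arrays with Xist signal, 1 without all 3 and 1 to 2 without single arrays. The call lost in each of these Mmp8+/+ fits, single arrays included, was that of C1qtnf1, at 0.59 in ordinary regression (adjusted p = 0.0704). C1qtnf6 passed in both genotypes in all 12 fits that left out 1 array. The counts in the genotype comparisons and the interaction were 0 throughout. Among all features, the share called in arthritis was 22.6% in Mmp8-/- mice and ran between 2.76% (without all 3 doubted arrays) and 35.6% (the 60% most variable features). In Mmp8+/+ mice it was 19.6% and ran between 9.74% and 31.2% in the same fits. Of alternative complement genes, 2 were called higher in Mmp8-/- mice in ordinary regression against 4, and 1 receptor gene against 0. Of these complement genes 2 were called lower against 1, in Mmp8-/- mice among the most variable features and in Mmp8+/+ mice with array weights. Over all features, ordinary regression called 15.3% in Mmp8-/- mice and array weights called 27.7% in Mmp8+/+ mice. Signs of differences close to 0 changed. For C1qtnf1 the genotype difference in arthritic mice was 0.021 after quantile normalization and -0.16 to 0.19 without single arrays. For C1qtnf7 it was 0.0048 with array weights and -0.28 to 0.090 without single arrays, and in control mice -0.35 to 0.016. Without single arrays it was -0.040 to 0.24 for C1qtnf2 and -0.42 to 0.030 for C1qtnf3 in arthritic mice, and the interaction was -0.17 to 0.12 for C1qtnf2 and -0.12 to 0.27 for C1qtnf7. The C1qtnf2 interaction was -0.026 without both arrays with Xist signal and -0.10 without all 3. The causes were not tested. No paired analysis was made, since each array was a different mouse and the labels name no pairs of mice. Each member had 1 feature, so no other feature was tried, C1qtnf2 was not among the 60% most variable features, and the interaction uses all groups, so it was not fitted on fewer. Low signals and 3 mice per group limit what can be seen.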
